A study of Mus musculus with 11 samples.

Results

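Endoplasmic reticulum chaperones and regulators of the unfolded protein response (UPR), 10 genes of the 42375 in the raw count table, were followed across mouse macrophages in the M0 and M1 states with and without a knockdown of the long noncoding RNA MERRICAL. They were taken by name: Xbp1, Atf6, Hspa5, Hsp90b1, Dnajb9, Herpud1, Sdf2l1, Pdia4, Calr and Hyou1. All 10 were among the 15024 genes left by the filter on low counts, and their raw counts per library lay between 643 (Herpud1) and 63185 (Hspa5). The cells were bone marrow derived macrophages (BMDM) with the genotype label C57BL/6, and every library, the controls included, came from cells given a gapmer for 16 hours. Gapmers are antisense oligonucleotides that make the cell cut the RNA they pair with. M0-BMDM-NS (M0 NS below) and M1-BMDM-NS (M1 NS) had the gapmer called NS, with 3 libraries each. M0-BMDM-KD (M0 KD, 3 libraries) and M1-BMDM-KD (M1 KD, 2 libraries) had the gapmer against MERRICAL. How the M1 state was induced and how many mice were used is not stated in these sources, and MERRICAL itself was not analysed here.

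The endoplasmic reticulum (ER) is where secreted and membrane proteins fold. When unfolded proteins build up there, the sensors IRE1, ATF6 and PERK, which the chaperone BiP binds, start the UPR: IRE1 splices the Xbp1 messenger, ATF6 is cut in the Golgi to free a transcription factor, and PERK phosphorylates eIF2alpha and so favours translation of ATF4. XBP1 and ATF6 are known to induce ER chaperones, folding enzymes and degradation factors. Macrophages secrete cytokines and present antigen, and IRE1 and XBP1 are known to act in their innate immune signalling. Counts per gene show neither the splicing of Xbp1 nor the cleavage of ATF6.

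The ER stress response element (ERSE) is the classical promoter sequence that ATF6, with the CCAAT-binding factor NF-Y, and XBP1 recognise, and its letters were searched as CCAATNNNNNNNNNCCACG on both strands. A shorter form, ERSE-II, was searched as ATTGGNCCACG, also on both strands. The windows were RefSeq promoters (GRCm38.p6, from 250 bases before a gene's start to 50 after it), and the table held 8 of the 10 genes, Atf6 and Hyou1 being the exceptions. ERSE was found in 39 of 32851 promoters (0.119%) and in 3 of the 8, Hspa5, Calr and Hsp90b1. ERSE-II was found in 12 of 32851 (0.0365%) and in 1 of the 8, Herpud1. The 10 genes were chosen as ER chaperones and genes of the XBP1 and ATF6 branches, so these shares do not test an enrichment. Of the 4 genes that carry an element, Hspa5, Calr and Hsp90b1 were lower in M1 KD than in M1 NS (edgeR, adjusted p under 0.05). Herpud1 did not pass. Of the searched genes without an element, Xbp1 and Sdf2l1 were lower, and Dnajb9 and Pdia4 did not pass. Over all genes 19.2% were lower, and with so few genes the elements do not set their carriers apart. All matches are printed, with 5 bases on each side. Each is read 5′ to 3′ on the gene's own strand, and capitals mark the fixed letters of the element; in reverse orientation these read CGTGG and ATTGG.
Hspa5, chr2:34772020-34772048, plus strand, element 65 to 47 bases before the RefSeq start: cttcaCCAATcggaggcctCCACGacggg
Hsp90b1, chr10:86705633-86705661, minus strand, element 212 to 194 bases before the start: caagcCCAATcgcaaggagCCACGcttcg
Hsp90b1, chr10:86705528-86705556, minus strand, reverse orientation, element 107 to 89 bases before the start: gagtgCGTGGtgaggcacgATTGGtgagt
Calr, chr8:84847070-84847098, minus strand, reverse orientation, element 162 to 144 bases before the start: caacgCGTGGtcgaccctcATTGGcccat
Herpud1 (ERSE-II), chr8:94386372-94386392, plus strand, element 52 to 42 bases before the start: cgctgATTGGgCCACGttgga
The parts of the element are common on their own: CCAAT occurred in 37.4% of all promoters and in 7 of the 8, and CCACG in 32.8% and likewise in 7 of the 8. Both overlap the longer elements, which contain them. Positions are counted from the RefSeq start. GENCODE M21 places the outermost start of Hspa5 120 bases further upstream, so there the Hspa5 element lies inside the span of the gene. Its outermost start of Hsp90b1 is 65 bases upstream, and both Hsp90b1 elements lie before it. A match describes these letters only, and binding was not measured.

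All 10 are protein-coding genes in GENCODE M21 (GRCm38). Hspa5 spans chr2:34771970-34777547 and Hyou1 chr9:44379490-44392369 on the plus strand, and Calr spans chr8:84841850-84846934 and Hsp90b1 chr10:86690209-86705509 on the minus strand. Levels of the genes are given as counts scaled to a common library total (CPM), with the totals adjusted by the TMM method, as the mean ± SD over the libraries of a group. To compare one gene with another, CPM was divided by the exonic length of the gene in kilobases. On that per-length scale the chaperones Calr (372 ± 19.9, n = 3), Hspa5 (203 ± 2.96) and Hsp90b1 (179 ± 6.16) led in M0 NS, in that order and with no overlap between neighbours. Sdf2l1 followed at 68.8 ± 19.5. Pdia4 (39.2 ± 2.91) and Xbp1 (37.7 ± 1.14) came next with overlapping ranges. Herpud1 (19.4 ± 1.497), Hyou1 (17.6 ± 1.99), Atf6 (15.5 ± 2.77) and Dnajb9 (15.3 ± 1.14) were lowest, and each overlapped its neighbour in the order. The 3 abundant chaperones thus lay above both transcription factors in every M0 NS library. In M1 NS the first 3 places were the same, with Calr at 456 ± 15.4, Hspa5 at 387 ± 37.1 and Hsp90b1 at 245 ± 54.1, while Hyou1 had risen to 38.7 ± 2.04, a range that overlapped with that of Pdia4 (33.5 ± 3.89). In M1 KD (n = 2) Hspa5 (277 ± 35.7) and Calr (247 ± 68.0) had overlapping ranges. Atf6 had the lowest mean at 8.84 ± 1.72, with a range that overlapped that of Herpud1 (10.9 ± 3.01).

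Across the 11 libraries the 10 genes together came to 3215 to 3398 CPM in M0 NS, 3134 to 3618 in M0 KD, 4548 to 4786 in M1 NS and 2599 to 3311 in M1 KD. On this TMM-scaled sum M1 NS was highest and overlapped with no other group. As a share of the raw total, with no scaling, the 10 genes took 0.352 to 0.393% in M0 NS, 0.36 to 0.432% in M0 KD and 0.382 to 0.432% in M1 NS, which overlap, and 0.219 to 0.273% in M1 KD, below all other groups. The sum is carried mostly by Hspa5, Calr and Hsp90b1.

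**Figure D1:**
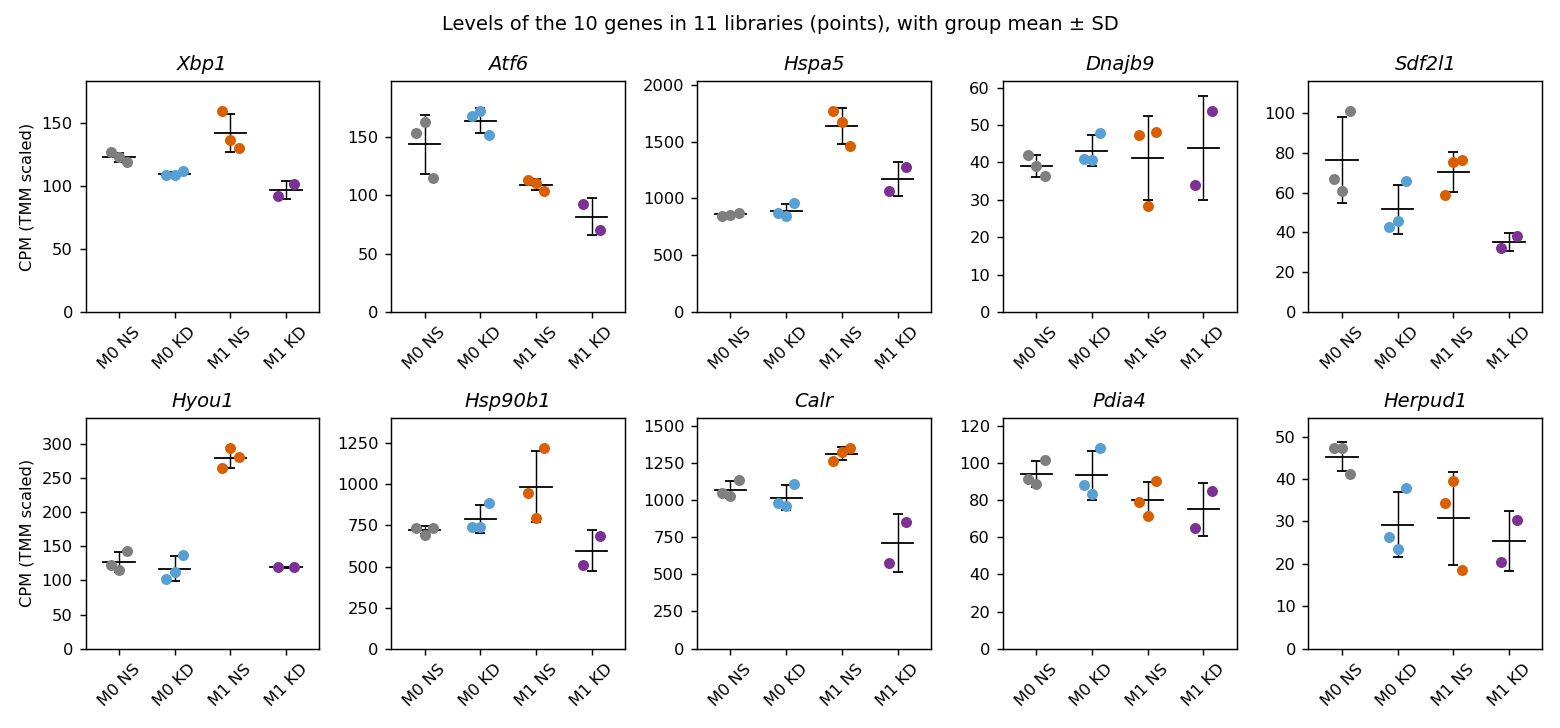
Each panel plots 1 gene: the level in TMM-scaled CPM (y axis, from 0) in each library (points) of the 4 groups (x axis), with the group mean (wide line) and SD (error bar). Hyou1 is high in M1 NS only (264.9 to 294.4 CPM, against 102 to 143 in the other 8 libraries), and both M1 KD libraries are the lowest of all for Calr, Hsp90b1, Sdf2l1, Xbp1 and Atf6.

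Total counts ran from 30040632 to 43250392 per library. The macrophage label was checked with 10 markers, all detected, whose summed level was 26431 to 27966 CPM in M0 NS, 19947 to 21820 in M0 KD, 14068 to 16295 in M1 NS and 15659 to 18724 in M1 KD. Lyz2 was the largest part of this sum (17460 ± 1224 CPM in M0 NS and 5639 ± 687 in M1 NS). Taken singly, 5 of the 10 macrophage markers were higher and 4 lower in M1 NS against M0 NS. The M1 label was checked with Nos2, Il12b, Il6, Cxcl9 and Gbp2, which rose in M1 NS against M0 NS (5 of 5; summed level 80.7 to 191 CPM in M0 NS and 12904 to 15108 in M1 NS), and likewise in M1 KD against M0 KD (5 of 5; 95.5 to 177 CPM in M0 KD and 18312 to 21530.5 in M1 KD). Neutrophil markers summed to 1297 to 2275 CPM in M0 NS, 727 to 749 in M0 KD, 241 to 313 in M1 NS and 207 to 225 in M1 KD, and 10 of 11 fell in M1 NS against M0 NS. Of the plasma cell markers, a cell type known for high ER chaperone levels, Mzb1 had no count in any of the 5 M1 libraries, where 3 counts would be 0.0823 to 0.119 CPM, and did not pass 0.0622 CPM in M0. Sdc1, which other cells also express, measured 20.1 ± 5.61 CPM in M0 NS, 16.4 ± 9.32 in M0 KD, 9.21 ± 7.20 in M1 NS and 32.3 ± 22.1 in M1 KD, and Igj 0.0788 ± 0.0775 in M1 NS and 0.311 ± 0.284 in M1 KD. Mitochondrially encoded genes took 1.02 to 1.14% of counts in M0 NS, 1.28 to 1.45% in M0 KD, 0.488 to 0.891% in M1 NS and 0.522 to 0.727% in M1 KD. The part of these shifts in the results below was not tested. The replicate numbers are 1, 2 and 4 in 3 of the groups and 5 and 6 in M1 KD, so anything that goes with those numbers cannot be told apart from the M1 knockdown. Nothing states that libraries of a group are separate cultures, so the p-values cover the spread among libraries alone, and this may be technical spread. Because the samples are bulk RNA, fewer cells expressing a gene and less RNA per cell cannot be told apart.

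Hspa5 and Hyou1 rose from M0 to M1 in cells with the NS gapmer, and Atf6 fell. Of the 10 genes, 3 passed edgeR's quasi-likelihood test at an adjusted p under 0.05 (Benjamini-Hochberg over 15024 genes), 2 higher and 1 lower. Over all genes 55.5% passed in this comparison, so a call here is common. Libraries of M1 NS and M0 NS had separate ranges for 7 of the 10 (5 higher, 2 lower), against 61.4% of all genes. The median log2 fold change was 0.14 over the 10 and -0.04 over all genes.

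Hspa5 encodes BiP, the main HSP70 chaperone of the ER and the protein that holds the UPR sensors inactive. It measured 847, 857 and 872 CPM in the M0 NS libraries and 1770.04, 1676 and 1464 in M1 NS. Every M1 NS library lay well above every M0 NS library. The rise was 1.91-fold (log2 0.93, SE 0.14, adjusted p 1.38e-04). Hyou1 encodes an HSP70-like protein (GRP170) that exchanges nucleotide on BiP. Its level was 123, 116 and 143 CPM in M0 NS and 264.9, 294.4 and 281 in M1 NS, again with a wide gap between the groups. It rose 2.20-fold (log2 1.14, SE 0.14, adjusted p 2.19e-05). Both calls held in all 21 alternatives.

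Atf6, the membrane-bound sensor and precursor of a transcription factor, measured 153, 163 and 115 CPM in M0 NS and 113, 110.3 and 104 in M1 NS. The groups were separate only by the small gap below replicate 4 of M0 NS. Its fold change was -0.40 on the log2 scale (SE 0.15, adjusted p 0.0419), and the call ended in 12 of 21 alternatives, DESeq2 among them. Xbp1, which encodes the transcription factor that IRE1 activates, ran from 119 to 126 CPM in M0 NS and from 130.3 to 159 in M1 NS, and its log2 fold change of 0.21 did not pass (adjusted p 0.131), although DESeq2 called it (adjusted p 0.0493).

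The remaining chaperones, folding enzymes and Herpud1 did not pass, and their values lay in both directions. Hsp90b1 encodes GRP94, the HSP90 of the ER. Its levels were 737, 692 and 732 CPM in M0 NS and 945, 793 and 1223 in M1 NS, which is a wide spread in M1 NS (log2 0.45, adjusted p 0.0504). It passed as higher in 9 of 21 alternatives, with an adjusted p of 0.0122 by DESeq2. Calr encodes calreticulin, a lectin chaperone that binds calcium and helps load MHC class I, and it measured 1047, 1029.5 and 1136 CPM against 1264, 1323 and 1351 (log2 0.29, adjusted p 0.141). Groups did not overlap for either gene. Herpud1, a membrane protein of ER-associated degradation, measured 47.3, 47.4 and 41.3 CPM in M0 NS and 34.3, 39.5 and 18.4 in M1 NS, all lower (log2 -0.56, adjusted p 0.0869). Dnajb9 (ERdj4, an HSP40 partner of BiP), Sdf2l1 (a partner in BiP complexes) and Pdia4 (ERp72, a disulfide isomerase) overlapped between the groups, with log2 values of 0.08, -0.12 and -0.23.

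The scaling of the libraries sets part of this picture. With library size alone the median of all genes moved from -0.04 to -0.42, the calls over all genes went from 4044 higher and 4294 lower to 2348 higher and 6447 lower, and Xbp1, Dnajb9 and Calr changed sign. Hspa5 and Hyou1 stayed higher under each scaling tried. With library size alone their log2 values were 0.54 and 0.75, to be read against that median of -0.42.

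**Figure D2:**
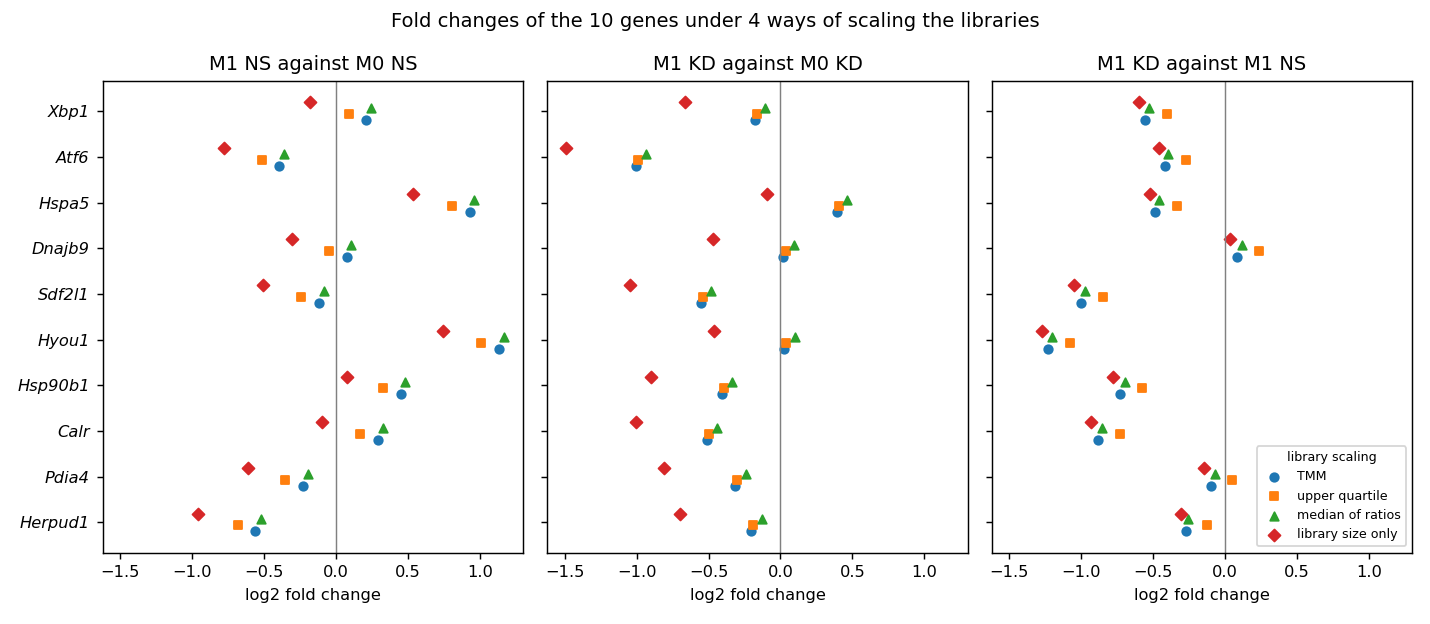
Log2 fold change (x axis) of each of the 10 genes (y axis) in 3 comparisons (panels), with the libraries scaled by TMM (circles), upper quartile (squares), median of ratios (triangles) or library size only (diamonds). Library size only moves all 10 genes to the left in both M1 against M0 panels, while in M1 KD against M1 NS the 4 scalings stay close and 8 genes (all but Dnajb9 and Pdia4) lie below 0 under each.

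In M0 cells the MERRICAL gapmer gave no call among the 10 genes with edgeR, nor did any of the 15024 genes pass (0%; lowest adjusted p 0.190). At an unadjusted p under 0.05 there were 2 of the 10, Sdf2l1 and Herpud1, and 1947 of all genes. DESeq2 and limma-trend also called 0 of the 10, and DESeq2 called 221 genes in all. Fitted on the M0 libraries alone, edgeR called 0 of the 10 and 1091 genes in all. Group ranges did not overlap for 3 of the 10, against 35.1% of all genes. The median log2 fold change was -0.04 over the 10 and 0.00 over all genes.

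Herpud1 measured 26.2, 23.6 and 38.0 CPM in M0 KD, below all 3 M0 NS libraries (log2 -0.63, SE 0.26, adjusted p 0.364). Xbp1 was likewise lower in each library, at 108, 108 and 111 CPM (log2 -0.17, adjusted p 0.515). Sdf2l1 measured 66.9, 60.9 and 101 CPM in M0 NS and 42.9, 46.0 and 65.9 in M0 KD, and the groups overlapped through replicate 4 of M0 KD (log2 -0.56, SE 0.21, adjusted p 0.333). Hsp90b1, at 740.2, 742 and 889 CPM, was above M0 NS by a narrow margin (log2 0.13). Hspa5 (870.3, 847 and 958 CPM), Calr (978, 959 and 1111), Hyou1 (102, 112 and 137), Atf6 (168, 172 and 152), Pdia4 (88.2, 83.5 and 108) and Dnajb9 (40.9, 40.6 and 48.0) overlapped with M0 NS. Their log2 values lay between -0.12 and 0.19. Without the filter on low counts 2 of the 10 passed as lower, as did 385 genes in either direction.

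In M1 cells the same gapmer went with lower messages for part of the 10 genes. Hyou1, Sdf2l1, Calr, Hsp90b1, Xbp1 and Hspa5 fell in M1 KD against M1 NS by edgeR's test at an adjusted p under 0.05, and none of the 10 rose. That is 6 of 10 lower, where 19.2% of all genes were lower and 36.8% passed in either direction. Group ranges did not overlap for 7 of the 10, the 6 and Atf6, all lower in M1 KD, against 52.4% of all genes in either direction. The median log2 fold change was -0.52 over the 10 and 0.00 over all genes. This comparison shares the M1 NS libraries with M1 NS against M0 NS.

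Hyou1 changed most. It measured 119 and 119.7 CPM in M1 KD, less than any M1 NS library and inside the range of M0 NS. The fall was 2.35-fold (log2 -1.23, SE 0.16, adjusted p 1.52e-04), and it passed in all 19 alternatives. Sdf2l1 measured 58.9, 75.5 and 76.6 CPM in M1 NS and 32.0 and 38.3 in M1 KD, the lowest 2 of the 11 libraries. Its log2 fold change was -1.0004 (SE 0.24, adjusted p 0.00756). Hspa5 measured 1063 and 1277 CPM in M1 KD, between M1 NS and M0 levels (log2 -0.48, SE 0.16, adjusted p 0.0325). Dnajb9, the remaining HSP70-system gene, measured 47.3, 28.3 and 48.2 CPM in M1 NS and 33.9 and 53.7 in M1 KD. The groups overlapped and showed no direction (log2 0.08, adjusted p 0.802).

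Calr measured 574 and 851 CPM in M1 KD. Both values are below each of the other 9 libraries, although they differ from each other. The fall was 1.84-fold (log2 -0.88, SE 0.18, adjusted p 0.00316) and passed in all 19 alternatives. Hsp90b1 fell to 507 and 685 CPM, also below the other 9 libraries though close to the 692 of M0 NS replicate 2 (log2 -0.73, SE 0.21, adjusted p 0.0167). Part of its exons, 415 bases, overlaps the opposite-strand gene 1810014B01Rik. Reads there cannot be told apart where counting ignores strand, and no source used here names the strand setting. The exons of Hsp90b1 also overlap Gm15344 (84 bases) and Gm25745 (133 bases) on the same strand, which a strand setting would not separate. Pdia4, at 79.1, 71.7 and 90.2 CPM in M1 NS and 65.0 and 85.0 in M1 KD, overlapped between the groups (log2 -0.10, adjusted p 0.660).

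The regulator Xbp1 measured 91.6 and 101 CPM in M1 KD, lower than in the other 9 libraries. It fell 1.47-fold (log2 -0.56, SE 0.13, adjusted p 0.00534). Atf6 measured 92.8 and 70.3 CPM and was likewise lowest in M1 KD, but its log2 fold change of -0.42 did not pass (SE 0.17, adjusted p 0.0750). It passed as lower in 3 of 19 alternatives. Herpud1, whose promoter holds ERSE-II, measured 20.5 and 30.4 CPM, inside the M1 NS range (log2 -0.27, adjusted p 0.494). Of the genes with ERSE letters in the promoter, Hspa5, Calr and Hsp90b1 all fell, and so did Sdf2l1 and Xbp1, whose windows hold none.

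Of these 6 calls, those of Hyou1 and Calr did not depend on any alternative tried. The call of Hspa5 ended in 9 of 19 (adjusted p up to 0.196). Without M1 KD replicate 5, the lower of both M1 KD libraries for each of these 6 genes, the adjusted p was 0.0735 for Sdf2l1, 0.147 for Hsp90b1 and 0.196 for Hspa5, and that of Xbp1 was 0.0467. Fitted on the 5 M1 libraries alone, 3 of the 10 passed as lower (Hyou1, Sdf2l1 and Calr) and 3074 genes passed in all, against 5535 in the fit of 11 libraries. With upper-quartile scaling the calls over all genes moved from 47.8% to 61.3% higher, the median of all genes moved to 0.15, and 5 of the 10 genes were still called lower. Other markers moved in the same comparison. Of 10 macrophage markers, 3 rose and 2 fell, among them Cd68 (362 ± 61.5 CPM in M1 NS and 1788 ± 327 in M1 KD) and Emr1 (4296 ± 282 and 2489 ± 159). Of the 5 M1 markers, Cxcl9 rose (2394 ± 379 and 5058 ± 2295) and Il12b fell (682 ± 215 and 156 ± 81.8). Of 11 neutrophil markers, 2 fell and 1 rose. Of 5 tested B and plasma cell markers, 2 rose and none fell (summed level 5.98 to 18.2 CPM in M1 NS and 18.5 to 49.6 in M1 KD, mostly Sdc1). Of 6 dendritic cell markers, 1 rose and none fell, and Ccr7 measured 112 and 581 CPM in the M1 KD libraries. Of 2 tested T and NK cell markers 1 rose, and of 6 tested stromal markers none passed. The part of these markers in the lower values of the 6 genes was not tested.

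**Figure D3:**
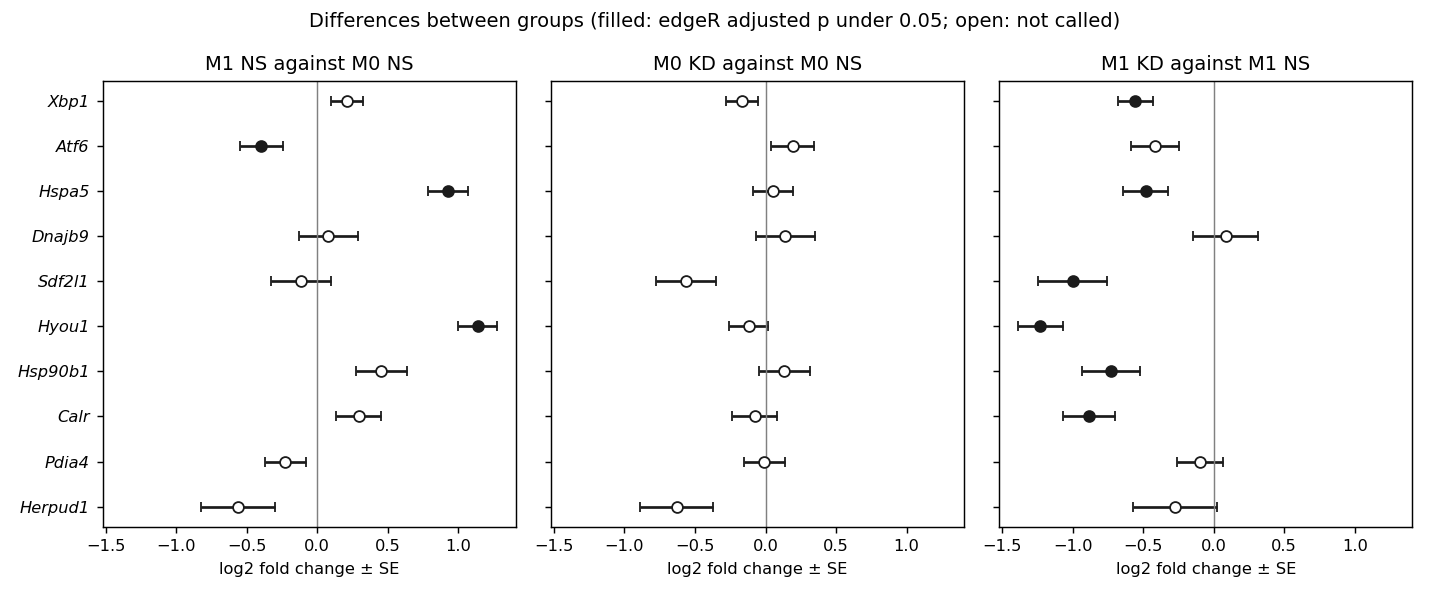
Log2 fold change with its standard error (x axis) for each of the 10 genes (y axis) in 3 comparisons (panels). Filled points passed at an adjusted p under 0.05: 3 in M1 NS against M0 NS, 0 in M0 KD against M0 NS and 6, all below 0, in M1 KD against M1 NS.

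Whether the knockdown effect differed between M1 and M0 was tested as the difference of both effects in the same edgeR fit. It passed for Hyou1 (log2 -1.11, SE 0.21, adjusted p 0.00261), Calr (-0.81, SE 0.24, adjusted p 0.0285) and Hsp90b1 (-0.86, SE 0.27, adjusted p 0.0356). In each the effect was more negative in M1. That is 3 of 10, all lower, where 14.2% of all genes were lower and 27.3% passed in either direction. The other members of the set of 6 did not pass: Hspa5 (-0.54, adjusted p 0.0798), Xbp1 (-0.39, adjusted p 0.106) and Sdf2l1 (-0.44, adjusted p 0.334). For Sdf2l1 the M0 and M1 effects were -0.56 and -1.0004, and a difference between them was not detectable with these libraries. Atf6 had a difference of -0.61 (adjusted p 0.0666), from effects of 0.19 in M0 and -0.42 in M1, neither of which passed. The median was -0.49 over the 10 and -0.02 over all genes. The call of Hyou1 held in all 18 alternatives, that of Calr ended in 6 and that of Hsp90b1 in 10. Among the genes not called, Hspa5 passed as lower in 3 alternatives, Atf6 in 2 and Xbp1 in 1. With upper-quartile scaling the share of calls that were higher moved from 48.0% to 59.2% over all genes.

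The M1 against M0 contrast within knockdown cells gave 3 calls among the 10, where 58.3% of all genes passed. Hspa5 was higher (log2 0.39, SE 0.16, adjusted p 0.0473), beside 0.93 with the NS gapmer. The difference between these values did not pass by edgeR (adjusted p 0.0798, above), although DESeq2 called it (adjusted p 0.0298). Atf6 fell 2.01-fold (log2 -1.01, SE 0.17, adjusted p 3.60e-04), a call that held in all 19 alternatives. Calr fell as well (log2 -0.51, SE 0.18, adjusted p 0.0292). Hyou1, which rose with the NS gapmer, stood at 102 to 137 CPM in M0 KD and at 119 to 119.7 in M1 KD (log2 0.03, adjusted p 0.893). Group ranges did not overlap for 6 of the 10 (1 higher, 5 lower), against 74.9% of all genes, and the median was -0.26 against -0.11 over all genes. The call of Hspa5 is fragile: with library size only its value was -0.10, and 8 other alternatives ended it. That scaling also moved the calls over all genes from 46.1% to 25.1% higher, the median of all genes to -0.59, and the calls among the 10 to 8 lower and 0 higher. The call of Calr ended in 5 of 19, with a log2 value of -0.26 (adjusted p 0.264) without M1 KD replicate 5.

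The neighbours of these genes in the ER pathways were described from 9 lists with 129 genes, all of which passed the filter on low counts. In M1 NS against M0 NS, 55 were higher and 20 lower, which is 58.1% called beside 55.5% of all genes. In M1 KD against M1 NS, 21 were higher and 29 lower (29 higher and 21 lower with upper-quartile scaling), or 38.8% beside 36.8%. The shares called are thus near those of all genes. Over all genes, 26.9% were higher and 28.6% lower in the first comparison, and 17.6% higher and 19.2% lower in the second, and the counts below are to be read against these. No test compared one list with another. In M0 KD against M0 NS edgeR called 0 of 129. For M1 NS against M0 NS, library size alone gave 27 higher and 45 lower.

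Of the 10 genes of the PERK and ATF4 arm, 8 were higher and 1 lower (Vldlr, a lipoprotein receptor, named after its values were seen) in M1 NS against M0 NS, and 6 were higher and 0 lower in M1 KD against M1 NS. That is 90% and 60% called, and the median log2 fold changes were 1.85 and 1.01. Ddit3, which encodes the stress transcription factor CHOP, measured 34.5 ± 9.24 CPM in M0 NS, 31.9 ± 5.48 in M0 KD, 82.0 ± 15.6 in M1 NS and 394 ± 115 in M1 KD. It was thus raised in M1 NS and again in M1 KD, where it rose 4.804-fold over M1 NS (log2 2.26, SE 0.25, adjusted p 5.43e-05). Trib3, a pseudokinase induced by CHOP and ATF4, measured 2.72 ± 0.31, 3.31 ± 1.06, 21.97 ± 3.29 and 82.3 ± 5.03 CPM in the same order (log2 1.90 in M1 KD against M1 NS, SE 0.22, adjusted p 7.30e-05). Ppp1r15a encodes GADD34, which brings the phosphatase to eIF2alpha, and it rose 7.18-fold from M0 NS to M1 NS (log2 2.84, SE 0.21, adjusted p 3.10e-07). Sesn2, a stress-induced regulator of mTORC1, differed between the M1 and M0 knockdown effects (log2 1.14, SE 0.17, adjusted p 7.45e-04). This arm is also induced outside ER stress, and these counts do not tell the triggers apart. Each of the 4 scalings gave 8 higher calls in M1 NS against M0 NS.

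Sensors and regulators outside the 10 genes were mixed. In M1 NS against M0 NS, 6 of 12 were higher and 3 lower: Creb3, an ATF6-like transcription factor, rose (log2 1.04, SE 0.13, adjusted p 2.34e-05), and its relative Creb3l2 fell (-1.48, SE 0.18, adjusted p 2.56e-05). Eif2ak3, which encodes PERK, was also among the lower (-1.14, SE 0.15, adjusted p 3.84e-05) and is named after its values were seen. It measured 35.5 ± 2.75 CPM in M0 NS and 16.2 ± 0.57 in M1 NS. In M1 KD against M1 NS none of the 12 was higher and 2 were lower. Mbtps2, the site-2 protease that cuts ATF6, measured 40.4 ± 3.71 CPM in M0 NS, 51.4 ± 5.84 in M0 KD, 30.8 ± 6.78 in M1 NS and 15.5 ± 3.30 in M1 KD. It fell in M1 KD against M1 NS (log2 -0.99, SE 0.20, adjusted p 0.00288). Ern1, which encodes IRE1alpha, was the other, with a log2 value of -0.44 (adjusted p 0.0365) that no longer passed in 11 alternatives.

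Calreticulin works in the calnexin cycle, which holds glycoproteins until they are folded. Of 11 calnexin cycle and glycan trimming genes, 6 fell and none rose in M1 KD against M1 NS (54.5% called, median -0.43). Uggt1, the glucosyltransferase that tags glycoproteins not yet folded, fell 2.17-fold (log2 -1.12, SE 0.17, adjusted p 3.95e-04), and Mlec, the lectin malectin, fell 1.92-fold (log2 -0.94, SE 0.13, adjusted p 2.86e-04). Both genes were also lower in M1 KD than in M0 KD, by 3.42-fold and 3.05-fold. Of 16 HSP70 and HSP40 partners and other folding factors, 4 rose in M1 KD against M1 NS and none fell, so that 25% were called, fewer than the 36.8% of all genes. The 4 include Ppib, the ER cyclophilin B, at 95.2 ± 4.82 CPM in M1 NS and 182 ± 0.50 in M1 KD (log2 0.93, SE 0.11, adjusted p 8.26e-05). From M0 NS to M1 NS 4 of the 16 rose and 3 fell (43.8% called). Dnajc1, a membrane-bound HSP40, rose then (log2 0.78, SE 0.13, adjusted p 2.67e-04). Cnpy2, a small saposin-like ER protein, fell from M0 NS to M1 NS (log2 -0.79, SE 0.15, adjusted p 6.87e-04) and rose in M1 KD against M1 NS (log2 1.25, SE 0.16, adjusted p 1.67e-04).

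Of 17 disulfide enzymes, 1 was higher and 3 were lower in M1 KD against M1 NS (23.5% called, below the share of all genes). Pdia6, a disulfide isomerase bound to BiP, fell (log2 -0.85, SE 0.16, adjusted p 0.00206), and Prdx4, the ER peroxiredoxin, rose (log2 1.43, SE 0.17, adjusted p 1.05e-04). Ero1l, the oxidase that recharges the isomerases, rose from M0 NS to M1 NS (log2 2.22, SE 0.32, adjusted p 8.38e-05), and Erp29 fell (log2 -0.88, adjusted p 3.40e-04). Of 22 genes of ER-associated degradation, 14 were higher and 1 lower in M1 NS against M0 NS (68.2% called), 7 higher and 5 lower with library size alone. Nploc4, a cofactor of VCP, had a log2 value of 1.24 (adjusted p 9.56e-06) and Vimp, its membrane anchor, one of 0.77 (adjusted p 3.68e-05). In M1 KD against M1 NS 5 were higher and 4 lower (40.9% called). There Edem2, which helps pick misfolded glycoproteins for degradation, rose (log2 0.96, SE 0.14, adjusted p 2.79e-04), and Vcp, the ATPase that pulls them out of the membrane, fell (log2 -0.64, SE 0.14, adjusted p 0.00462).

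Entry to and exit from the ER were counted last. COPII genes, which form the coat of vesicles that leave the ER, were higher in M1 NS against M0 NS for 11 of 12 and lower for none (91.7% called; 3 higher with library size alone). In M1 KD against M1 NS 6 of 12 fell and none rose (50% called, median -0.59), among them the scaffold Sec16a (log2 -0.98, SE 0.12, adjusted p 1.13e-04) and the cargo adaptor Sec24c (-0.89, SE 0.15, adjusted p 9.74e-04). The coat subunit Sec23b (log2 1.33, SE 0.13, adjusted p 3.30e-06) and the adaptor Sec24b (log2 2.08, SE 0.22, adjusted p 6.41e-06) rose from M0 NS to M1 NS. Of 12 oligosaccharyltransferase genes, 1 was higher and 5 lower in M1 KD against M1 NS (50% called), with the catalytic subunits Stt3a (-0.64, adjusted p 0.00473) and Stt3b (-0.58, adjusted p 0.00692) among the lower. Translocon and signal peptidase genes had 4 of 17 higher, Sec11c among them (log2 0.97, SE 0.17, adjusted p 0.00103), and 3 lower there (41.2% called). On the 5 M1 libraries alone the counts were 5 higher for the PERK and ATF4 arm, 3 lower for the calnexin cycle and 3 lower for COPII, and the calls of Vcp, Stt3a and Stt3b ended (adjusted p 0.0668, 0.0601 and 0.0770).

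**Figure D4:**
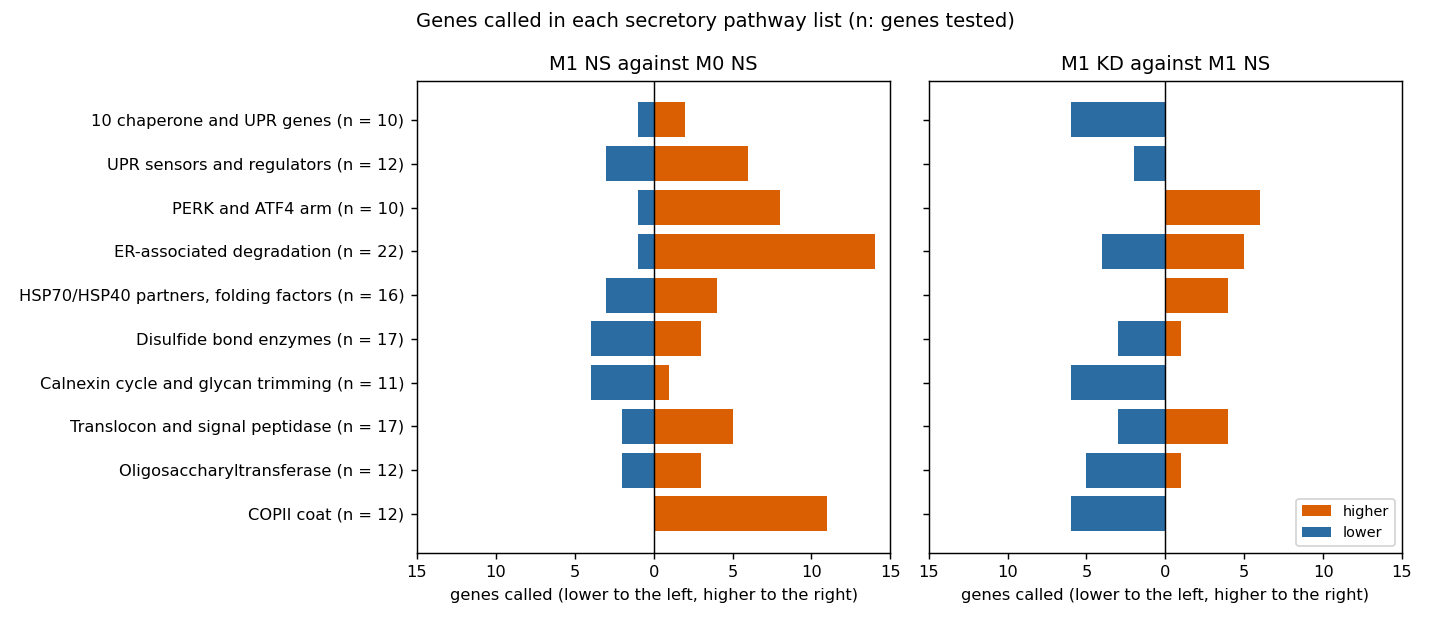
Number of genes called higher (right of 0) and lower (left of 0) at an adjusted p under 0.05 in the 10 genes (top) and in each of the 9 pathway lists (y axis), for M1 NS against M0 NS and M1 KD against M1 NS. In M1 KD against M1 NS the PERK and ATF4 arm has 6 higher and 0 lower, while the calnexin cycle and the COPII coat each have 0 higher and 6 lower.

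The genes whose log2 CPM followed that of Hspa5 most closely over the 11 libraries were Hdlbp, Srsf7, Slc25a25, Cacna1d and Hinfp, among 8312 genes ranked. Pearson's r was 0.996 for Hdlbp, 0.995 for Srsf7, 0.990 for Slc25a25, 0.988 for Cacna1d and 0.985 for Hinfp. Spearman's rho lay between 0.845 and 0.964. The libraries fall into M0 and M1 sets, so these values are a description of likeness across groups.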

How the data were processed

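Total RNA was sequenced from 11 libraries in 4 groups. The submitters' processing notes name the genome build GRCm38, the aligner STAR 2.5.2b, the trimmer Trimmomatic 0.36 and the counter featureCounts, with Subread 1.5.2. Strand setting and annotation were not given in the sources used here, so gene positions and exonic lengths were taken from GENCODE M21 of the same build. The authors deposited a raw count per gene and library, and a second table of normalized signal for 22812 genes, which on checking was the deposited count divided by 1 constant per library, close to its median-of-ratios factor. An entry with a blank name (0.000219% of counts) was left out.

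Counts were tested with edgeR 4.0.16 in R 4.3.3: filterByExpr (minimum count 10, minimum total 15), TMM factors, 1 coefficient per group over all 11 libraries, glmQLFit with robust spread, glmQLFTest, and Benjamini-Hochberg adjustment over 15024 genes at 0.05. The standard error is the log2 fold change divided by the t value that its p gives. CPM uses TMM-scaled library sizes. Depth (30040632 to 43250392 counts) leaves little counting error in genes at these levels, so the number of libraries limits precision. The edgeR steps were tested on simulated data.

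Alternatives were DESeq2 1.42.0, limma 3.58.1 (limma-trend on log2 of the normalized signal plus 1), other scalings and filters, only the groups compared, a replicate block and each library left out. Genes of the pathway lists are named from the 2 called genes with the smallest p in each list and comparison, and not all of these are described. The 10 genes and all lists were chosen with earlier results of these data known.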

Additional observations from a re-analysis of the deposited data

Results flagged for a closer look

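For 3 of the 10 genes the effect of the MERRICAL gapmer differed between M1 and M0 cells by edgeR's test of the difference itself. Over all genes 27.3% passed that test, and 14.2% passed as lower. Hyou1 had a difference of -1.11 (log2, SE 0.21, adjusted p 0.00261): its effect was -0.12 in M0 and -1.23 in M1, and both M1 KD libraries lay below all 3 M1 NS libraries. Calr had a difference of -0.81 (SE 0.24, adjusted p 0.0285), from -0.08 in M0 and -0.88 in M1. Hsp90b1 had a difference of -0.86 (SE 0.27, adjusted p 0.0356), from 0.13 in M0 and -0.73 in M1. The call of Hyou1 held in all 18 alternatives, that of Calr ended in 6 (adjusted p up to 0.110) and that of Hsp90b1 in 10 (up to 0.146). The M1 KD libraries carry other replicate numbers than the rest, so whatever these numbers mark cannot be told apart from the effect in M1.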

How the results depend on the processing

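Of 288 recomputed values of the 15 called fold changes, 233 kept direction and call, 54 lost the call and 1 changed sign; 6 of the 15 passed in every alternative. With library size alone the called members were 5 in M1 NS against M0 NS, 8 in M1 KD against M0 KD and 6 for the difference of effects (1 with upper-quartile factors). Over all 15024 genes that scaling called 8795, 9453 and 4076 in the same order, of which 6447, 7077 and 2506 were lower. Upper-quartile factors called 4179 genes for the difference. With library size alone the values that changed sign were Xbp1 -0.18, Dnajb9 -0.30 and Calr -0.093 in M1 NS against M0 NS, Hspa5 -0.10, Dnajb9 -0.47 and Hyou1 -0.46 in M1 KD against M0 KD, and Pdia4 0.047 in M0 KD against M0 NS. Upper-quartile factors changed the sign of Dnajb9 (-0.045) in M1 NS against M0 NS, of Pdia4 in M0 KD against M0 NS (0.0016) and M1 KD against M1 NS (0.051), and of Dnajb9 (0.081) and Pdia4 (0.049) in the difference; the CPM filter put Pdia4 at 0.0066 in M0 KD against M0 NS. In M0 KD against M0 NS, genes called were 221 with DESeq2, 385 without a filter (2 members) and 1091 on these groups alone; M1 KD against M1 NS on these groups alone gave 3 members and 3074 genes. Leaving out each library gave 1 to 4 members in M1 KD against M0 KD (1 without M0 KD replicate 4), 1 to 3 in the difference (a single one without replicates 1 or 2 of M0 NS and without replicates 1 or 4 of M0 KD) and 0 to 1 genes in M0 KD against M0 NS. Over all genes these fits called 7542 to 9361 in M1 KD against M0 KD and 2988 to 4754 for the difference. Signs that changed this way were those of Dnajb9 (-0.040 to 0.29) and Sdf2l1 (-0.25 to 0.14) in M1 NS against M0 NS, Dnajb9 (-0.35 to 0.32), Herpud1 (-0.52 to 0.053) and Hyou1 (-0.063 to 0.15) in M1 KD against M0 KD, Hspa5 (-0.00082 to 0.089) and Pdia4 (-0.13 to 0.064) in M0 KD against M0 NS, Dnajb9 (-0.28 to 0.38) and Pdia4 (-0.31 to 0.081) in M1 KD against M1 NS, and Dnajb9 (-0.43 to 0.24) and Pdia4 (-0.30 to 0.091) in the difference. The causes were not tested.

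Pairing by replicate number was looked at in deviations of log2 CPM from the group mean of each gene. For same-numbered libraries these correlated at 0.0221 to 0.135 (M0 NS with M0 KD) and -0.0825 to 0.0899 (M0 NS with M1 NS). Libraries of different number gave -0.133 to 0.0323 and -0.142 to 0.173. Of the M0 NS libraries, 2 of 3 and 1 of 3 correlated best with their own number. The labels state no pairing, and the numbers were not taken as pairs. With the replicate block over 9 libraries, 4 members and 8170 genes passed in M1 NS against M0 NS (4 and 8516 in the same libraries without it, added after seeing the data), Hsp90b1 being the fourth, and 0 in M0 KD against M0 NS; M1 KD shares no number, so no block was possible there.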
